A study of Homo sapiens with 6 samples.

Results

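The genes of cholesterol and fatty acid synthesis were followed in PC-9 cells, an EGFR-mutant human lung adenocarcinoma line, after knockdown (KD) of the splicing factor RBM10. The 31 genes were taken by symbol from a fixed list and make up 31 of the 26334 gene symbols in the files. They fall into a sterol arm of 22 genes and a fatty acid arm of 9 genes. Gene totals, the summed counts of all isoforms of a gene, were compared across 3 conditions, each with 2 libraries. The control carried shScr, a scrambled shRNA, and the other conditions carried shRBM10#1 or shRBM10#2, both directed against RBM10. All cells were PC-9, were grown in RPMI with fetal bovine serum and received no drug. The series was set up to examine RBM10 KD with independent shRNAs. The sources used here do not state whether the 2 libraries of a condition came from separate cultures, so the p-values measure the spread between these libraries, which may be technical.

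Cells build cholesterol from acetyl-CoA through the mevalonate pathway, which ends in farnesyl diphosphate, and then through squalene, lanosterol and a series of sterol reductions and demethylations. Fatty acid synthesis starts from the same acetyl-CoA, which ACLY supplies in the cytosol from citrate, and proceeds through malonyl-CoA to palmitate, which is then elongated and desaturated. SREBF2 and SREBF1 encode the membrane-bound transcription factors that drive most genes of the sterol and the fatty acid arm, respectively, and INSIG1 retains their precursors in the endoplasmic reticulum when sterols are abundant. Proliferating cells draw on both pathways for their membranes.

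The promoters of 4 members are shown because these genes moved together or apart in the comparisons. SREBF2 encodes the sterol regulator itself, NSDHL and AACS were lower with both shRNAs at FDR below 0.05, and MSMO1 differed most between the shRNAs. Each window, from RefSeq on GRCh38.p14, spans 250 bases before to 50 bases after the transcription start and is written 5′ to 3′ on the + strand, on which all 4 genes lie. Capitals mark exact matches on either strand to a sterol regulatory element (TCACNCCAC), an E-box (CACGTG), an NF-Y site (CCAAT) or an Sp1 site (GGGCGG). The windows lie at chr22:41832855-41833154 for SREBF2, chrX:152830813-152831112 for NSDHL, chr12:125065185-125065484 for AACS and chr4:165327419-165327718 for MSMO1.
SREBF2: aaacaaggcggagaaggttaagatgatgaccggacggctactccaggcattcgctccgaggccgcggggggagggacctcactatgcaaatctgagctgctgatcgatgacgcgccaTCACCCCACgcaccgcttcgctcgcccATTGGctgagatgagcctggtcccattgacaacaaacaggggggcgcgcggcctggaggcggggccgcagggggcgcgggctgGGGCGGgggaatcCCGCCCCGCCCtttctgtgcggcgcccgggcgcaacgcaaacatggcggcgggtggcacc
NSDHL: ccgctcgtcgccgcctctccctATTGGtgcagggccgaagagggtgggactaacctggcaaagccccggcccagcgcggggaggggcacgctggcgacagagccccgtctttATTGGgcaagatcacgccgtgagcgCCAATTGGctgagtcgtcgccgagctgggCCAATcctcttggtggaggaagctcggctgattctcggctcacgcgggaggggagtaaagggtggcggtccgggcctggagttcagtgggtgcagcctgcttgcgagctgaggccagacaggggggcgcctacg
AACS: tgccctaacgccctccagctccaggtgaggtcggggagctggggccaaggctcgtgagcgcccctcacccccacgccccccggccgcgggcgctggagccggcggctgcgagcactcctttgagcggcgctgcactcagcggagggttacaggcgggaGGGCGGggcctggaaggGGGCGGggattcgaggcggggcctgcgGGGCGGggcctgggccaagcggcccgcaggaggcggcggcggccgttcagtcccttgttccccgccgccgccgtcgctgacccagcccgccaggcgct
MSMO1: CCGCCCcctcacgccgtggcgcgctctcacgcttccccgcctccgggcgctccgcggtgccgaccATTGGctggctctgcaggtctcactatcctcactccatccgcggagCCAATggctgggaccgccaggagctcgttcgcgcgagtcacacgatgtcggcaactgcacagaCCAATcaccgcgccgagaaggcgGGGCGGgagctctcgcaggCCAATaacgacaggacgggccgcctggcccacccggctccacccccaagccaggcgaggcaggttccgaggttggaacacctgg

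The SREBF2 window holds a sterol regulatory element whose first base lies at -133 from the start, with 1 NF-Y match and 3 Sp1 matches, 2 of which share a base. The NSDHL window holds 5 NF-Y matches, 2 of which overlap, and no Sp1 match, whereas the AACS window holds 3 Sp1 matches and no NF-Y match. In the MSMO1 window there are 4 NF-Y matches and 2 Sp1 matches. Of the 31 genes, 27 had at least 1 window (38 windows in all), and ACAT2, FDFT1, SQLE and FASN had none in the table used here. Over these windows, NF-Y letters occurred in 63.2%, against 34.6% of all 35116 promoter windows in the table, and Sp1 letters in 86.8% against 44.95%. The sterol regulatory element occurred in 2.63% of member windows against 1.13% of all windows, and the E-box in 10.5% (INSIG1, LSS and SC5D) against 7.26%. These matches are a description of letters.

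Library totals ranged from 31953729 to 37557507 expected counts, and all 31 genes passed the filter on low counts, with 14217 genes tested. RBM10 read 83.2 and 86.2 CPM (counts scaled to the library total) in the controls, 59.8 and 56.4 after shRBM10#1 and 27.2 and 26.9 after shRBM10#2. Thus RBM10 was lower in every KD library than in either control and lowest with shRBM10#2. RBM10 fell by 0.54 ± 0.067 (SE) on the log2 scale with shRBM10#1 (FDR = 2.28e-04) and by 1.65 ± 0.0701 with shRBM10#2 (FDR = 5.1e-08), where FDR is the Benjamini-Hochberg adjusted p of edgeR's quasi-likelihood test over all genes tested. Epithelial markers were abundant in every library, with EPCAM, CDH1, EGFR and 4 keratins summing to between 22847 and 29030 TPM (transcript share per length). The sums were 25594 to 27338 TPM for shScr, 26533 to 29030 for shRBM10#1 and 22847 to 23727 for shRBM10#2. The markers did not move together. With shRBM10#2, EPCAM was higher than with shScr (log2 difference 0.24, FDR = 0.018), and EGFR (-0.38, FDR = 0.00758) and KRT19 (-0.28, FDR = 0.00842) were lower. With shRBM10#1, KRT19 was higher (0.28, FDR = 0.012) and EGFR lower (-0.29, FDR = 0.0441). The 9 markers of other cell types, mostly CD68, summed to 104 to 121 TPM with shScr, 84.3 to 86.4 with shRBM10#1 and 80.4 to 82.4 with shRBM10#2. CD68, COL1A1 and VWF, 3 of the 4 that were tested, were lower with shRBM10#2 at FDR below 0.05, as were 13.9% of all genes. CD68 was also lower with shRBM10#1 (log2 difference -0.33, FDR = 0.00411) and with both shRNAs pooled (-0.37, FDR = 0.048). VWF read at most 1.29 CPM in any library. PECAM1, the other marker tested, read 3.42 and 3.19 CPM with shScr and 3.74 and 4.49 with shRBM10#2. It was higher with shRBM10#1, at a log2 difference of 0.54 from shScr (FDR = 0.0459). PTPRC, CD3E, COL1A2, COL3A1 and PDGFRB did not exceed 0.11 TPM in any library, and the part of the marker sums in the results was not tested. In these bulk libraries, fewer cells of a kind and less RNA per cell cannot be told apart.

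The libraries differed in ways that touch the results. First, shRBM10#1 replicate 2 lay below shRBM10#1 replicate 1 in 27 of the 31 genes, with a median log2 difference of -0.14, whereas the median over all 14217 genes was 0.00106. The corresponding counts were 17 of 31 for shScr and 11 of 31 for shRBM10#2. Second, the mean fragment length implied by the effective lengths was 231 nucleotides in shScr replicate 2 and 265 to 281 in the other libraries, which enters TPM but not CPM. Results without shRBM10#1 replicate 1 or 2 are given beside each comparison. With an offset for effective length, 6 of the 7 calls with shRBM10#1, 13 of 13 with shRBM10#2 and 12 of 13 between the shRNAs were kept, while calls over all genes went from 1996 to 1706 with shRBM10#1 and from 3685 to 3224 with shRBM10#2. The calls lost were AACS with shRBM10#1 (FDR = 0.057) and FASN between the shRNAs (FDR = 0.0558).

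Per transcript length, the members spanned from SCD, the stearoyl-CoA desaturase, at 1051 ± 149 TPM (SD, n = 2) to STARD4, a cytosolic sterol carrier, at 3.12 ± 0.311 TPM in shScr. FDPS, which makes farnesyl diphosphate, came second at 234.5 ± 12.4 TPM, followed by SREBF1 at 168 ± 6.85 TPM, DHCR7 at 144 ± 12.4 TPM and FDFT1 at 143 ± 0.622 TPM. The TPM ranges of SCD, FDPS and SREBF1 in the shScr libraries did not overlap with those of the next gene, while DHCR7 and FDFT1 overlapped. FASN (117 ± 10.4 TPM) and ACLY (116 ± 11 TPM) could not be ordered either. Between INSIG1 at 49.1 ± 1.43 TPM and LSS at 25.0 ± 1.14 TPM, the ranges of each gene and the next overlapped, so neighbors in this run were not resolved, whereas INSIG1 and LSS themselves did not overlap. SC5D, at 3.6 ± 0.636 TPM, and STARD4 were the lowest and overlapped. SCD stayed highest with shRBM10#1 (831 ± 99.8 TPM) and shRBM10#2 (922 ± 52.9 TPM).

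**Figure D1:**
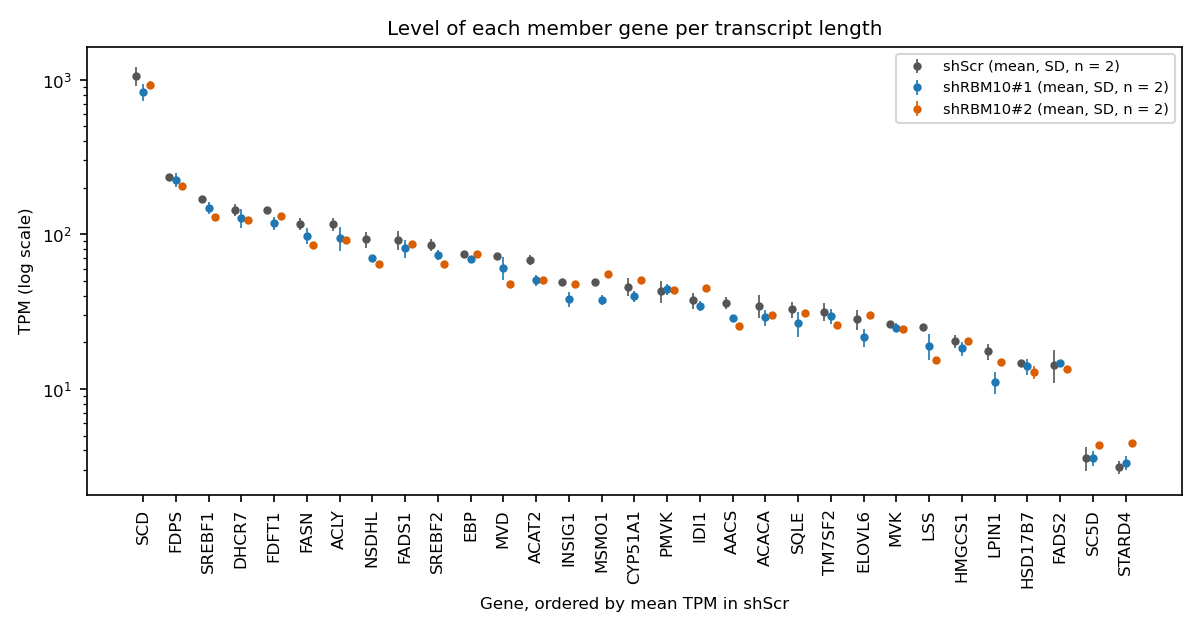
Level of each of the 31 genes in TPM (log axis) by condition, with points for the mean and bars for the SD of 2 libraries, ordered by the mean in shScr. SCD at 1051 TPM stands above all other members and SC5D and STARD4, at 3.6 and 3.12 TPM, stand below them in shScr.

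With shRBM10#1, 7 of the 31 genes were lower than with shScr and none was higher at FDR below 0.05. They were ACAT2, AACS, MSMO1, NSDHL and INSIG1 of the sterol arm and ELOVL6 and LPIN1 of the fatty acid arm. Over all 14217 genes, 14% were called in this comparison, 6.91% lower and 7.13% higher. The median log2 fold change (FC) was -0.10 in the sterol arm and -0.16 in the fatty acid arm, against 0.01 over all genes, and 25 of 31 members lay below 0, against 48.4% of all genes. Fitting only the shRBM10#1 and shScr libraries kept 4 of the 7 calls. AACS, INSIG1 and ELOVL6 were then lost, at FDR between 0.0605 and 0.0944. Without shRBM10#1 replicate 2, ACAT2, NSDHL and LPIN1 remained called and AACS, MSMO1, INSIG1 and ELOVL6 were lost at FDR between 0.110 and 0.182. Without shRBM10#1 replicate 1, 15 members were lower and called, the 7 above with MVD, FDFT1, SQLE, LSS, ACLY, ACACA, FASN and SCD. Leaving out 1 library of another condition kept 3 or 4 of the 7 calls, with ACAT2 and LPIN1 among those kept. In detail, AACS, INSIG1 and ELOVL6 were lost without either shRBM10#2 library (MSMO1 also without shRBM10#2 replicate 1), AACS, MSMO1, INSIG1 and ELOVL6 without shScr replicate 1, and AACS, NSDHL and ELOVL6 without shScr replicate 2, at FDR between 0.051 and 0.181.

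With shRBM10#2, 13 members differed from shScr, 4 higher and 9 lower. IDI1, MSMO1, SC5D and STARD4 were higher, and MVD, ACAT2, AACS, LSS, NSDHL, SREBF2, SREBF1, ACLY and FASN were lower, so that 10 calls fell in the sterol arm and 3 in the fatty acid arm. Of all genes, 25.9% were called in this comparison, 12% higher and 13.9% lower. The median log2 FC was -0.04 in the sterol arm and -0.12 in the fatty acid arm, against 0.01 over all genes, and 21 of 31 members lay below 0, against 49.2% of all genes. Leaving out either shRBM10#2 library kept 6 calls, the lost calls having FDR between 0.0504 and 0.322. Both times IDI1, MSMO1, SC5D, SREBF2, SREBF1 and ACLY were lost, with ACAT2 lost without shRBM10#2 replicate 1 and FASN without shRBM10#2 replicate 2. SC5D, SREBF1 and ACLY were lost without shScr replicate 1 and MSMO1 and ACLY without shScr replicate 2, at FDR between 0.0541 and 0.207. Without either shRBM10#1 library, CYP51A1, TM7SF2 and DHCR7 were called as well.

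Both comparisons share the shScr libraries, so the effects of the shRNAs were also compared with each other. Between shRBM10#2 and shRBM10#1, 13 members differed, 7 higher and 6 lower with shRBM10#2. Those higher with shRBM10#2 were IDI1, CYP51A1, MSMO1, INSIG1, STARD4, ELOVL6 and LPIN1, and those lower were MVD, AACS, LSS, SREBF2, SREBF1 and FASN. Over all genes, 25.5% were called, 11% higher and 14.5% lower. The arm medians were -0.03 for sterol and 0.02 for fatty acid genes. Without shRBM10#2 replicate 1, IDI1, MSMO1 and ELOVL6 remained called, and without shRBM10#2 replicate 2, MSMO1, ELOVL6 and LPIN1 remained, the others having FDR between 0.0599 and 0.305. AACS, LSS, SREBF2, SREBF1 and FASN were lost without shRBM10#1 replicate 1 (FDR between 0.0725 and 0.229) and INSIG1 without shRBM10#1 replicate 2 (FDR = 0.0878). In all, 14 members were called in none of these comparisons.

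With the 4 KD libraries pooled against shScr, 0 of the 31 genes passed FDR below 0.05 in edgeR, 10 had an unadjusted p below 0.05, and 1.62% of all genes were called. The smallest FDR was 0.0575, for ACAT2. DESeq2 called ACAT2, LSS and NSDHL in the same grouping, and leaving out shRBM10#1 replicate 1 gave 4 calls in edgeR, namely MVD, ACAT2, LSS and NSDHL. RBM10 itself had a pooled log2 FC of -0.99 ± 0.306 (FDR = 0.146). No member combined FDR below 0.05 with an absolute log2 FC above 1 in any comparison, criteria that 1.88% of genes met with shRBM10#1, 1.3% with shRBM10#2, 1.19% between the shRNAs and 0.394% in the pooled comparison.

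**Figure D2:**
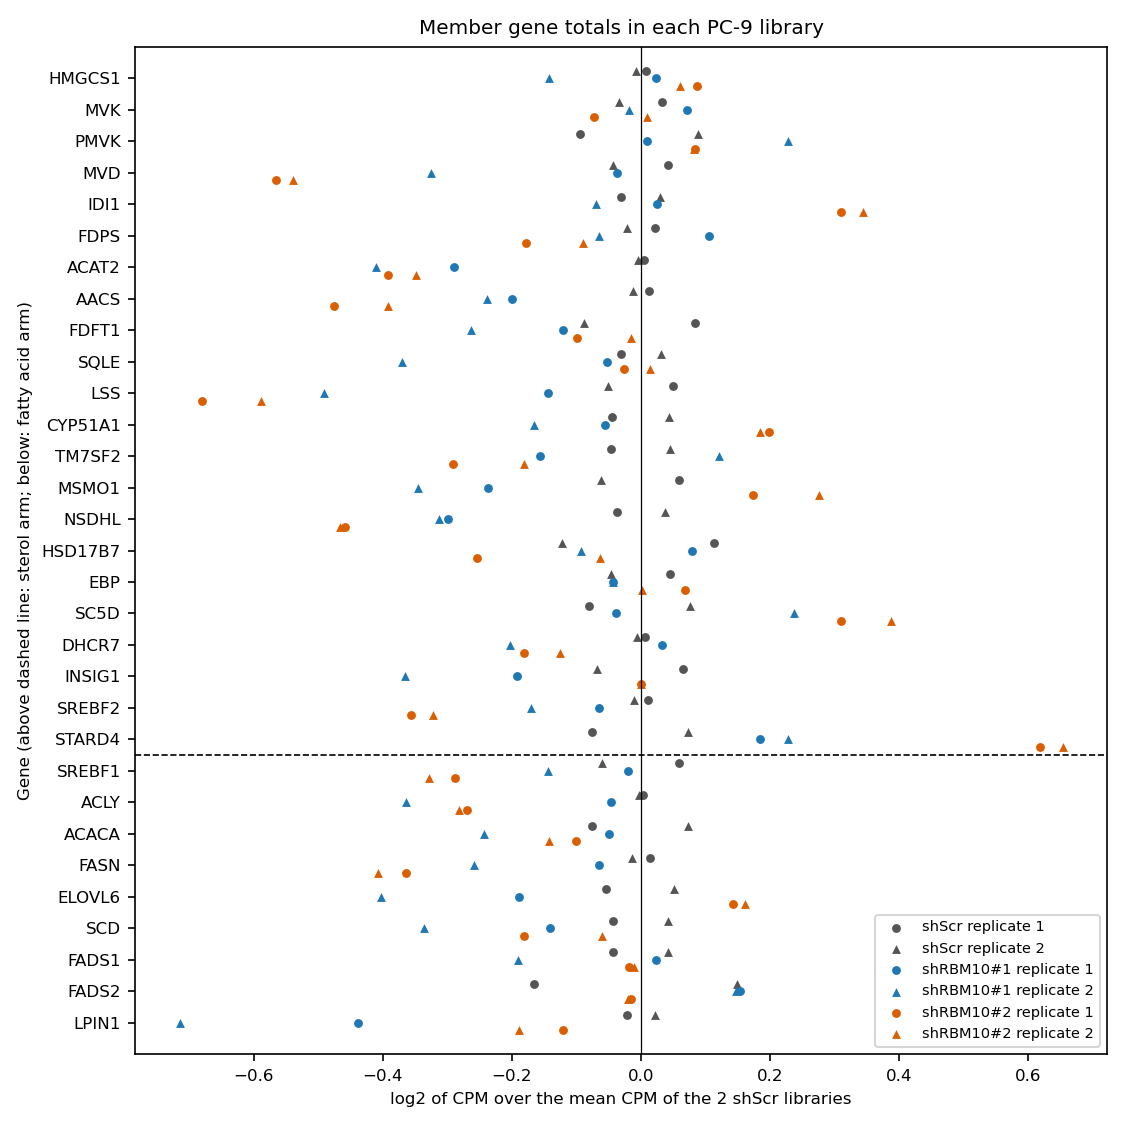
Each library's CPM relative to the mean of the 2 shScr libraries, on a log2 scale, for the 31 genes, with color for the condition and symbol for the replicate. The triangles of shRBM10#1 replicate 2 lie left of the circles of shRBM10#1 replicate 1 in 27 of 31 genes, and the shRBM10#2 libraries lie left of 0 for MVD, LSS, NSDHL and AACS and right of 0 for STARD4, SC5D and IDI1.

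In the mevalonate pathway, 2 of 8 genes were called with shRBM10#1, both lower, and 4 with shRBM10#2, 1 higher and 3 lower, against 14% and 25.9% of all genes. ACAT2, the cytosolic thiolase that joins acetyl-CoA units, read 57.7 and 57.3 CPM with shScr, 47.0 and 43.2 with shRBM10#1 and 43.8 and 45.1 with shRBM10#2. All 4 KD libraries lay below both controls, and the log2 FC was -0.35 ± 0.0705 (SE; FDR = 0.00547) with shRBM10#1 and -0.37 ± 0.0702 (FDR = 0.00291) with shRBM10#2. ACAT2 overlaps 397 exonic nucleotides of TCP1 on the other strand, a gene at a mean of 279 CPM whose log2 FC was -0.23 and -0.18 with shRBM10#1 and shRBM10#2, and 1141 of SOD2. Strand was not given in the sources used here, so reads from the shared bases could not be assigned. AACS, which activates acetoacetate for lipid synthesis, read 72.5 and 71.3 CPM with shScr, 62.6 and 60.9 with shRBM10#1 and 51.8 and 54.8 with shRBM10#2. The 3 conditions did not overlap, with log2 FC of -0.22 ± 0.0666 (FDR = 0.045, but 0.056 with DESeq2, 0.057 with the effective length offset and 0.0944 when only the 2 conditions compared were fitted) and -0.43 ± 0.0668 (FDR = 9.28e-04), and AACS was lower with shRBM10#2 than with shRBM10#1 by a log2 difference of -0.21 ± 0.067 (FDR = 0.0345).

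MVD, the decarboxylase that makes isopentenyl diphosphate, read 78.2 and 73.6 CPM with shScr, 74.0 and 60.6 with shRBM10#1 and 51.3 and 52.3 with shRBM10#2. Its shRBM10#2 libraries lay below the other 4, with a log2 FC of -0.55 ± 0.0876 against shScr (FDR = 0.00106) and a log2 difference of -0.38 ± 0.0877 from shRBM10#1 (FDR = 0.00833), which was -0.23 without shRBM10#1 replicate 1. Against shScr, this call was kept in every refit. IDI1, the isomerase acting on the product of MVD, moved the other way with 44.8 and 46.7 CPM in shScr, 46.5 and 43.5 with shRBM10#1 and 56.7 and 58.0 with shRBM10#2, a log2 FC of 0.33 ± 0.0694 with shRBM10#2 (FDR = 0.00523) and a log2 difference of 0.35 ± 0.0694 between the shRNAs (FDR = 0.00357). Consecutive enzymes of the pathway thus differed in direction with the same shRNA. HMGCS1, the synthase that commits carbon to the pathway, ranged from 62.2 to 72.9 CPM over the 6 libraries, the kinase MVK from 29.1 to 32.2 CPM, the kinase PMVK from 27.2 to 34.0 CPM and FDPS from 149 to 182 CPM. None of these 4 was called in any comparison, and reads of FDPS may also derive from its 8 annotated pseudogenes. The same limit holds for AACS (1 annotated pseudogene), HSD17B7 (2), SCD (1) and FADS2 (1). MVK shares 306 exonic nucleotides with MMAB on the other strand (mean 57.2 CPM). FADS2 shares 490 with FADS1 (mean 244 CPM), and reads from these bases could not be assigned either.

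From squalene to cholesterol, 2 of 11 genes were called with shRBM10#1, both lower, and 4 with shRBM10#2, 2 in each direction, against 14% and 25.9% of all genes. LSS, the cyclase that makes lanosterol, had the most negative log2 FC of all members with shRBM10#2. It read 67.5 and 62.9 CPM with shScr, 59.0 and 46.4 with shRBM10#1 and 40.7 and 43.4 with shRBM10#2. The log2 FC with shRBM10#2 was -0.63 ± 0.0986 (FDR = 9.62e-04), kept in every refit, and the log2 difference between the shRNAs was -0.32 ± 0.0991 (FDR = 0.0306), with -0.14 without shRBM10#1 replicate 1 and -0.49 without shRBM10#1 replicate 2. With shRBM10#1 the log2 FC of LSS was -0.31 ± 0.098 (FDR = 0.0528, and 0.0395 with DESeq2). NSDHL, a dehydrogenase of sterol demethylation, read 77.7 and 81.9 CPM with shScr, 64.9 and 64.3 with shRBM10#1 and 58.1 and 57.8 with shRBM10#2. The conditions did not overlap, and the log2 FC was -0.31 ± 0.0651 (FDR = 0.00771) with shRBM10#1 and -0.46 ± 0.0651 (FDR = 6.12e-04) with shRBM10#2. The difference between the shRNAs was -0.16 ± 0.0654 on the log2 scale and did not pass the threshold (FDR = 0.0972).

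MSMO1, the oxidase that acts in the same demethylation as NSDHL, was called in opposite directions by the shRNAs, with the call for shRBM10#2 close to the threshold. It read 65.2 and 59.97 CPM with shScr, 53.1 and 49.3 with shRBM10#1 and 70.6 and 75.8 with shRBM10#2. The 3 conditions did not overlap, with log2 FC of -0.29 ± 0.0752 (FDR = 0.0221) and 0.23 ± 0.074 (FDR = 0.0398, and 0.0546 with DESeq2), and the log2 difference of 0.52 ± 0.0746 between the shRNAs (FDR = 6.34e-04) was kept in every refit. SC5D, a sterol desaturase, read 14.8 and 16.4 CPM with shScr, 15.2 and 18.4 with shRBM10#1 and 19.3 and 20.4 with shRBM10#2. Its shRBM10#2 libraries were the highest, with a log2 FC of 0.35 ± 0.106 (FDR = 0.0291). CYP51A1, the lanosterol demethylase, read 84.3 and 89.7 CPM with shScr, 83.7 and 77.6 with shRBM10#1 and 99.8 and 98.9 with shRBM10#2. Between the shRNAs its log2 difference was 0.30 ± 0.0671 (FDR = 0.00654), whereas the log2 FC against shScr was -0.11 ± 0.0675 with shRBM10#1 (FDR = 0.312) and 0.19 ± 0.067 with shRBM10#2 (FDR = 0.0519), neither of which passed.

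The remaining 6 genes of this segment were called in no comparison. FDFT1, the squalene synthase, ranged from 149 to 189.7 CPM, SQLE, the squalene epoxidase, from 44.9 to 59.3 CPM, and DHCR7, the last reductase of the pathway, from 196 to 231 CPM. The sterol reductase TM7SF2 ranged from 22.5 to 29.99 CPM, the ketoreductase HSD17B7 from 10.2 to 13.1 CPM and the isomerase EBP from 42.7 to 46.3 CPM. SQLE was lowest in shRBM10#1 replicate 2, at 44.9 CPM against 56.0 in shRBM10#1 replicate 1.

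Among the sterol regulators, SREBF2 read 280.5 and 276 CPM with shScr, 266 and 247 with shRBM10#1 and 217 and 223 with shRBM10#2. Its shRBM10#2 libraries were lowest, with a log2 FC of -0.34 ± 0.0637 against shScr (FDR = 0.00269) and a log2 difference of -0.22 ± 0.0636 from shRBM10#1 (FDR = 0.0221). INSIG1, the retention factor, showed the other pattern, with 91.4 and 83.4 CPM in shScr, 76.5 and 67.8 with shRBM10#1 and 87.4 and 87.4 with shRBM10#2. Its log2 FC was -0.28 ± 0.0755 with shRBM10#1 (FDR = 0.0279) and 5.36e-04 ± 0.0748 with shRBM10#2 (FDR = 0.997), and the log2 difference between the shRNAs was 0.28 ± 0.0752 (FDR = 0.0173). STARD4 had the most positive log2 FC of all members with shRBM10#2. It read 6.99 and 7.75 CPM with shScr, 8.38 and 8.63 with shRBM10#1 and 11.3 and 11.6 with shRBM10#2, without overlap between conditions. Its log2 FC was 0.64 ± 0.111 with shRBM10#2 (FDR = 0.00183), kept in every refit, and the difference between the shRNAs was 0.43 ± 0.109 on the log2 scale (FDR = 0.0127).

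**Figure D3:**
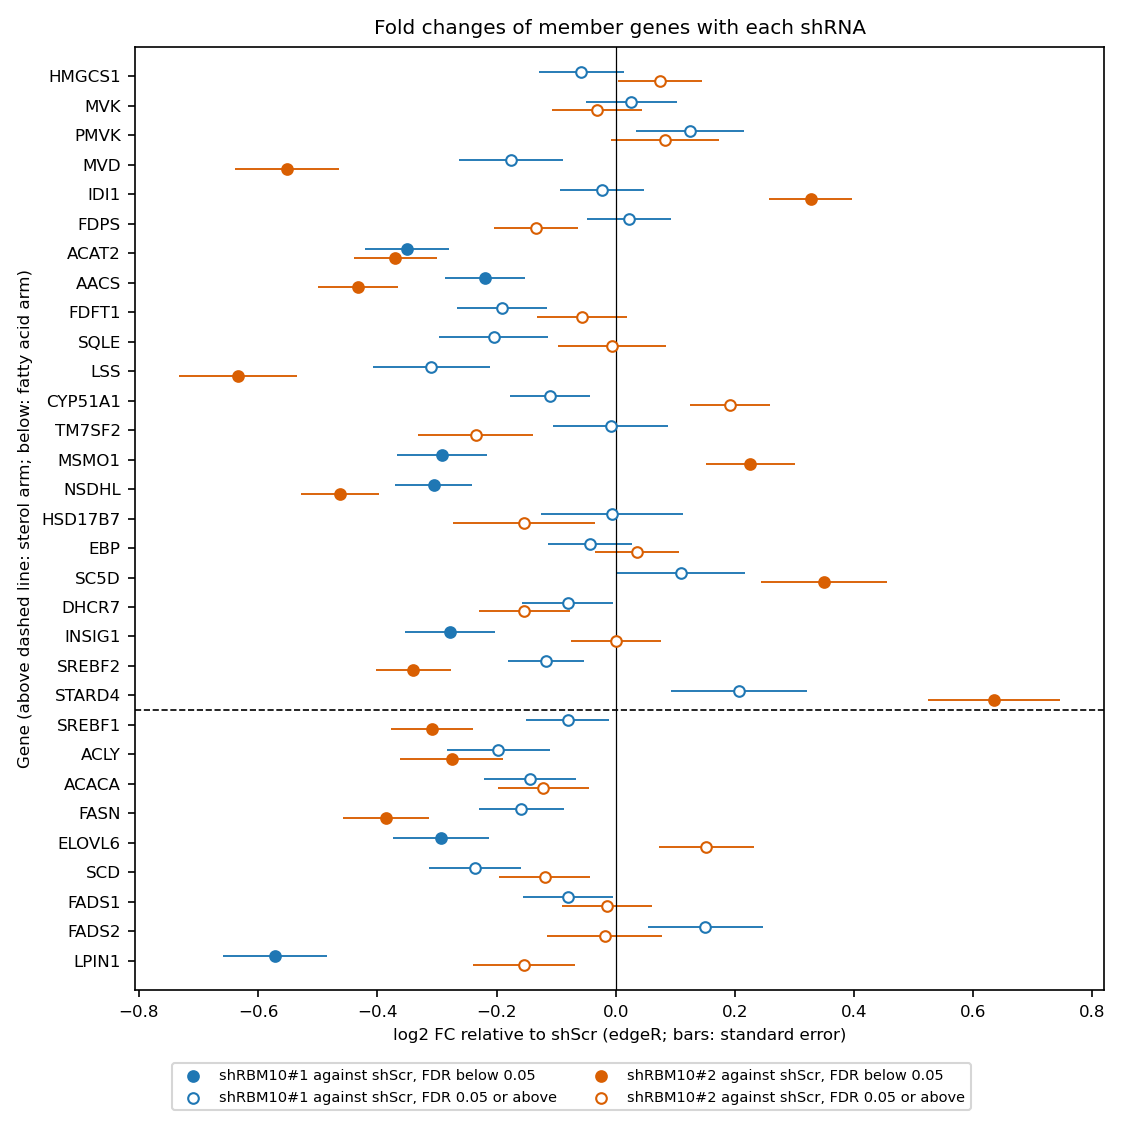
The log2 FC of each of the 31 genes with shRBM10#1 and with shRBM10#2 against shScr, with bars for the standard error and filled points for FDR below 0.05. Filled points number 7 for shRBM10#1, all left of 0, and 13 for shRBM10#2, with 9 left and 4 right of 0, and MSMO1 has filled points on both sides.

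In the fatty acid arm, SREBF1 read 534 and 491 CPM with shScr, 505 and 464 with shRBM10#1 and 419 and 408 with shRBM10#2. The shRBM10#2 libraries were lowest, with a log2 FC of -0.31 ± 0.0693 (FDR = 0.00704) and a log2 difference of -0.23 ± 0.0693 from shRBM10#1 (FDR = 0.0295). SREBF1 overlaps 556 exonic nucleotides of RAI1 on the other strand, at a mean of 172 CPM. The log2 FC of RAI1 was 0.12 with shRBM10#1 and -0.19 with shRBM10#2, and reads from the shared bases could not be assigned. FASN, the synthase that makes palmitate, read 631 and 618 CPM with shScr, 597 and 522 with shRBM10#1 and 485 and 471 with shRBM10#2. It was lowest with shRBM10#2 as well, with a log2 FC of -0.39 ± 0.0719 (FDR = 0.0026) and a log2 difference of -0.23 ± 0.0719 from shRBM10#1 (FDR = 0.0351). That difference was -0.13 without shRBM10#1 replicate 1 and -0.32 without shRBM10#1 replicate 2, and its FDR was 0.0558 with the effective length offset. ACLY, the citrate lyase, read 311 and 309 CPM with shScr, 300.2 and 241 with shRBM10#1 and 257 and 255 with shRBM10#2, a log2 FC of -0.28 ± 0.0866 with shRBM10#2 (FDR = 0.034). ACACA, the carboxylase between ACLY and FASN, ranged from 176 to 219.5 CPM and was called in no comparison.

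LPIN1 encodes a phosphatidate phosphatase that acts toward triglycerides and also in the nucleus as a coregulator. It read 57.8 and 59.5 CPM with shScr, 43.3 and 35.7 with shRBM10#1 and 53.9 and 51.4 with shRBM10#2, so that the shRBM10#1 libraries lay below the other 4. Its log2 FC of -0.57 ± 0.087 with shRBM10#1 (FDR = 9.15e-04) was the most negative of the 31 and was kept in every refit. LPIN1 had a log2 FC of -0.15 ± 0.0854 with shRBM10#2 (FDR = 0.208), and the log2 difference between the shRNAs was 0.42 ± 0.0868 (FDR = 0.00462). ELOVL6, which elongates palmitate, read 52.7 and 56.7 CPM with shScr, 48.0 and 41.4 with shRBM10#1 and 60.3 and 61.1 with shRBM10#2. The shRBM10#1 libraries were lowest and the shRBM10#2 libraries highest, with a log2 FC of -0.29 ± 0.0809 with shRBM10#1 (FDR = 0.0295), 0.15 ± 0.0795 with shRBM10#2 (FDR = 0.182) and a log2 difference of 0.44 ± 0.0802 between them (FDR = 0.0022), which was kept in every refit. Without shRBM10#1 replicate 2, the log2 FC of ELOVL6 with shRBM10#1 was -0.19 (FDR = 0.182). The desaturases were called in no comparison, with SCD between 2817 and 3661 CPM, FADS1 between 218 and 256 CPM and FADS2 between 23.1 and 28.9 CPM. DESeq2 called SCD lower with shRBM10#1, at a log2 FC of -0.24 ± 0.0782 (FDR = 0.0243), where edgeR gave -0.24 ± 0.077 (FDR = 0.0599).

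Because RBM10 acts in splicing, isoform shares, the part of a gene's counts that each isoform takes, were tested as a readout separate from gene totals. Of the 20 members with at least 2 isoforms past the filter, 0 were called with shRBM10#1 (0.25% of all genes tested; 1 member had an unadjusted p below 0.05, and limma called 0) and 2 with shRBM10#2, CYP51A1 and ACLY (1.9% of all genes tested). Between the shRNAs, edgeR called 0 members, with 2 at an unadjusted p below 0.05 and 2 called by limma. In CYP51A1, isoform NM_001146152 took 12.8% and 8.5% of the gene's expected counts with shScr, 11.8% and 12.9% with shRBM10#1 and 26.6% and 23.7% with shRBM10#2. The shRBM10#2 libraries stood above the other 4 (edgeR diffSpliceDGE, FDR = 0.0264). The GENCODE transcript matched to this isoform in GRCh38 starts from its own first exon of 138 nucleotides at chr7:92134666-92134803. The main isoform, NM_000786, has a first exon of 358 nucleotides at chr7:92134173-92134530. That GENCODE transcript is 1729 nucleotides long against 3210, with a shorter last exon (432 against 1693). The isoform counted here was not that short. In shScr replicate 1, 351 expected counts gave 5.78 TPM for NM_001146152, and 2387 gave 35.7 TPM for NM_000786. A shorter 3′ end is therefore not part of this result. Without 1 library the call was kept only when shScr replicate 1 was left out, and FDR ranged from 0.0765 to 0.414 without any of the other 5. CYP51A1 has 3 annotated pseudogenes, to which some reads may belong.

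In ACLY, isoform NM_198830 held 393 and 207 expected counts with shScr, 1.49 and 36.4 with shRBM10#1 and 0.05 and 0 with shRBM10#2, at least 112-fold lower with shRBM10#2 than with shScr against a floor of 3 counts per library. Isoform NM_001303274 rose from 27.0% and 30.8% of the gene in shScr to 39.2% and 40.1% with shRBM10#2, with 23.7% and 26.3% for shRBM10#1 (FDR = 0.0133 for the gene with shRBM10#2, edgeR diffSpliceDGE). GENCODE assigns NM_198830 and NM_001303275 to 1 transcript, which lacks a cassette exon of 30 nucleotides at chr17:41896620-41896649 in GRCh38, and NM_001096 and NM_001303274 to another that has it, so that the division of reads within each pair is uncertain. Summed over the pair without this exon, the share was 16.4% and 12.3% with shScr, 12.4% and 13.6% with shRBM10#1 and 11.4% and 11.1% with shRBM10#2. The shRBM10#2 libraries were lowest, and shScr and shRBM10#1 overlapped. The call on ACLY was lost without either shScr library or either shRBM10#2 library, at FDR between 0.143 and 0.2295, at FDR = 0.212 when isoforms needed 10 counts in every library and at FDR = 0.0587 with limma. Limma called CYP51A1, LPIN1, FDFT1 (FDR = 0.0108) and SREBF2 (FDR = 0.0235) with shRBM10#2.

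**Figure D4:**
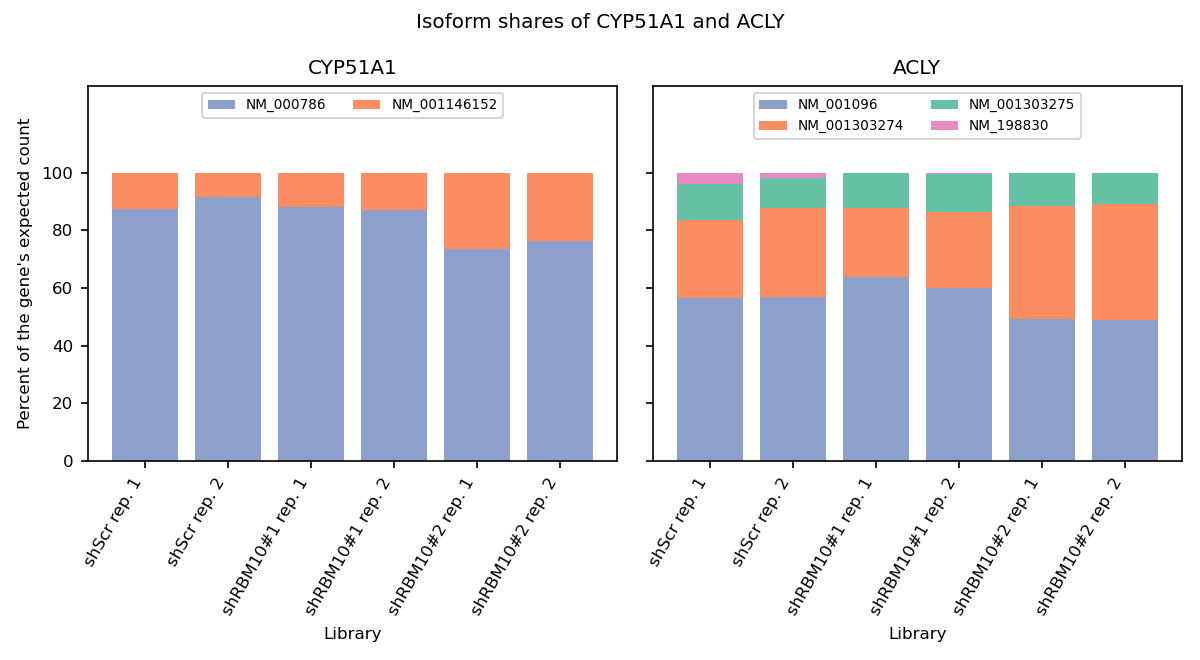
Stacked bars give the percent of the gene's expected count held by each isoform of CYP51A1 and ACLY in the 6 libraries. NM_001146152 of CYP51A1 takes 26.6% and 23.7% with shRBM10#2 and at most 12.9% elsewhere, and NM_001303274 of ACLY takes 39.2% and 40.1% with shRBM10#2 and at most 30.8% elsewhere.

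The isoforms of the regulators SREBF1 and LPIN1 were not called with either shRNA in edgeR. NM_004176 held 84.5% and 82.3% of SREBF1 with shScr, 86.5% and 84.0% with shRBM10#1 and 83.6% and 82.0% with shRBM10#2. NM_145693 held 74.9% and 69.5% of LPIN1 with shScr, 65.5% and 64.7% with shRBM10#1 and 63.1% and 54.8% with shRBM10#2. For LPIN1 the shScr libraries were above the other 4, and limma called the gene with shRBM10#2 (FDR = 0.0445) where edgeR gave FDR = 0.825.

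Other genes of the pathways were counted from lists that hold no member. Of 26 further sterol genes, 1 was higher and 3 were lower with shRBM10#1, and 2 were higher and 5 lower with shRBM10#2, with median log2 FC of 0.11 and 0.05 against 0.01 over all genes. The shares called were near those of all genes, 14% and 25.9%, so the count says nothing particular of this list. ABCA1, which exports cholesterol, had log2 FC of -0.65 ± 0.0845 with shRBM10#1 (FDR = 3.33e-04) and -0.31 ± 0.0834 with shRBM10#2 (FDR = 0.0181). TMEM97 had 0.29 ± 0.0799 with shRBM10#1 (FDR = 0.0279) and 0.40 ± 0.0795 with shRBM10#2 (FDR = 0.00359). NPC1, which releases cholesterol from lysosomes, had -0.41 ± 0.0854 with shRBM10#1 (FDR = 0.00647) and -0.29 ± 0.0843 with shRBM10#2 (FDR = 0.0244). LBR, a sterol reductase of the nuclear envelope, had -0.28 ± 0.0701 with shRBM10#1 (FDR = 0.0179). OSBP, a sterol transfer protein, had -0.24 ± 0.0631 with shRBM10#2 (FDR = 0.0164). Of 29 tested among 32 further fatty acid genes, 1 was higher and 2 were lower with shRBM10#1, and 7 were higher and 1 was lower with shRBM10#2. Their median log2 FC was 0.07 with shRBM10#1 and -0.07 with shRBM10#2, and the total shares called were again near the 14% and 25.9% of all genes. By direction, the calls with shRBM10#2 were less even than over all genes, of which 12% were higher and 13.9% lower. This split was not tested. With shRBM10#1, ACSL4, which activates polyunsaturated fatty acids, had a log2 FC of -0.65 ± 0.0925 (FDR = 6e-04), ME1 had -0.39 ± 0.0715 (FDR = 0.00288), and ACSS2, which activates acetate, had 0.28 ± 0.0619 (FDR = 0.0107). With shRBM10#2, the acyltransferase AGPAT2 had -0.33 ± 0.0631 (FDR = 0.00305), HSD17B12, a reductase of fatty acid elongation, had 0.31 ± 0.0624 (FDR = 0.00409), and MLX had 0.32 ± 0.0777 (FDR = 0.0101). In the pooled comparison none of either list was called.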

How the data were processed

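RNA-seq libraries of PC-9 cells were analyzed, 2 for each of shScr, shRBM10#1 and shRBM10#2. The authors deposited expected counts, TPM and effective lengths for 51398 RefSeq isoforms. The submitters' processing notes name STAR 2.4, RSEM 1.2.29, edgeR and the build hg19, and expected counts split reads shared by isoforms. The strand protocol was not given in the sources used here. The deposited TPM were used for levels per transcript length and for marker sums. Expected counts were summed per gene symbol and rounded.

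Counts were scaled by TMM, filtered with filterByExpr by condition and fitted in edgeR 4.0.16 (glmQLFit and glmQLFTest, R 4.3.3), with 1 coefficient per condition over all 6 libraries, or with both shRNAs as 1 group. Tests were two-sided, with Benjamini-Hochberg adjustment (FDR) over all genes tested and a threshold of 0.05. CPM are on TMM-scaled totals. Isoform usage was tested with diffSpliceDGE over genes with at least 2 isoforms past the filter. Alternatives used DESeq2 1.42.0 and limma 3.58.1. Simulated data held 200 genes changed by 2 on the log2 scale. The gene test recovered nearly all of them, with a share of false calls somewhat above the threshold in the comparisons between conditions. Every member changed by less than this, so the recovery of changes of the members' size was not tested. With gene-specific spread, the usage test called more unchanged genes than its threshold allows. The authors' methods name a parental control, while the labels name shScr, which was used. Libraries held 31953729 to 37557507 expected counts, and a member gene held between 227 and 130686.

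The members and lists were chosen with earlier results of these data known. All members are named, a log2 FC with its test is given for members called and for RBM10, isoforms for members called and for SREBF1 and LPIN1, and up to 3 genes per further list and shRNA with the smallest FDR among those called. A gene so named that was also called with the other shRNA is given for both. A log2 FC of LSS, CYP51A1, INSIG1, NSDHL, LPIN1, ELOVL6 or SCD that was not called is given beside a called one. Promoter windows were searched for exact letters.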

Additional observations from a re-analysis of the deposited data

Results flagged for a closer look

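For 13 of the 31 genes, the effect of shRBM10#2 differed from the effect of shRBM10#1 in a direct test between them (edgeR quasi-likelihood test, FDR below 0.05). Over all genes, 25.5% were called in this test. The log2 difference, shRBM10#2 minus shRBM10#1, was 0.35 for IDI1, 0.30 for CYP51A1, 0.52 for MSMO1, 0.28 for INSIG1, 0.43 for STARD4, 0.44 for ELOVL6 and 0.42 for LPIN1, all higher with shRBM10#2. It was -0.38 for MVD, -0.21 for AACS, -0.32 for LSS, -0.22 for SREBF2, -0.23 for SREBF1 and -0.23 for FASN, all lower with shRBM10#2. In each of the 13 genes, both shRBM10#2 libraries lay on the same side of both shRBM10#1 libraries. The genes were picked by a test on these same libraries, so this separation is no further result. RBM10 itself was lower with shRBM10#2 than with shRBM10#1 by a log2 difference of -1.11 (FDR = 3.65e-06), and the part of this difference in the values of the 13 genes was not tested. With 2 libraries per condition, no search for a single outlying library within a condition was made.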

How the results depend on the processing

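Of 33 called fold changes of members, 0 reversed in any refit, 31 kept FDR below 0.05 with DESeq2 and 23 kept it in each refit that held all libraries. Beyond the values given with each comparison, counts of calls moved as follows, and the cause was not tested. With an absolute log2 FC above 1 as a second criterion, calls fell to 0 in both arms with each shRNA and between the shRNAs. With shRBM10#1, sterol calls went from 5 to 3 and fatty acid calls from 2 to 1 when only the 2 conditions compared were fitted, and fatty acid calls went to 4 with no filter. In the pooled comparison, DESeq2 gave 3 sterol calls, a minimum of 10 counts in every library gave 1, and the mean of both shRNA effects, with 1 coefficient per condition, gave 7 sterol and 4 fatty acid calls. Isoform usage calls with shRBM10#2 went from 2 to 4 with limma diffSplice (CYP51A1, FDFT1, SREBF2 and LPIN1, without ACLY), and between the shRNAs from 0 to 2 with limma and with the 10-count minimum.

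No broad shift shared by same-numbered libraries was seen, as their deviations correlated at -0.00383, -0.0193 and -0.0136 across genes. These correlations cannot show whether the libraries were prepared in pairs. With the replicate block, sterol and fatty acid calls were 5 and 2 with shRBM10#1, 9 and 3 with shRBM10#2, 8 and 3 between the shRNAs, and 0 in the pooled comparison, and 29 of the 33 called fold changes kept FDR below 0.05. The 4 lost were AACS with shRBM10#1 (0.0763), MSMO1 with shRBM10#2 (0.0566), and AACS and FASN between the shRNAs (0.0589 and 0.0527). Isoform usage calls with shRBM10#2 went from 2 to 0. With the block and an effective length offset, calls were 3 sterol and 1 fatty acid with shRBM10#1, and 2 fatty acid calls between the shRNAs. MSMO1 was then lost with shRBM10#1 (FDR = 0.0584) and shRBM10#2 (FDR = 0.0727).

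Leaving out 1 library at a time, where a lone library is assumed to vary like the other conditions, gave 2 to 9 sterol and 1 to 6 fatty acid calls with shRBM10#1, 5 to 13 and 0 to 3 with shRBM10#2, 1 to 10 and 1 to 5 between the shRNAs, and 0 to 4 sterol and 0 fatty acid calls in the pooled comparison. Isoform usage calls ranged from 0 to 1 in each comparison. The fatty acid median log2 FC ranged from -0.26 (without shRBM10#1 replicate 1) to -0.049 (without shRBM10#1 replicate 2) with shRBM10#1, and from -0.072 (without shRBM10#1 replicate 2) to 0.12 (without shRBM10#1 replicate 1) between the shRNAs. The sterol median ranged from -0.17 (without shRBM10#1 replicate 1) to -0.05 (without shRBM10#1 replicate 2) with shRBM10#1, from -0.10 (without shScr replicate 2) to -0.0068 (without shRBM10#2 replicate 1) with shRBM10#2, and between the shRNAs from -0.03 to 0.04, turning positive without shRBM10#1 replicate 1. Member counts were at least 227 in every library, and 2 libraries per condition limit the estimate of spread. Over all genes in the pooled comparison, 230 were called, against 718 with DESeq2, 2610 with the mean of both shRNA effects, 52 with the replicate block, 47 with the block and an effective length offset and 0 to 413 with 1 library left out (90 without shRBM10#1 replicate 2). With 1 library left out, 985 was the lowest count with shRBM10#1 (1996 with all libraries), 954 with shRBM10#2 (3685) and 918 between the shRNAs (3628), and the block with the offset gave 1315 with shRBM10#1.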

Other observations

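Genes of fatty acid oxidation, the opposite process in mitochondria and peroxisomes, were counted beside the synthesis genes. Of 20 tested among 22 listed genes, 3 were higher and none lower with shRBM10#1, and 7 were higher and 1 was lower with shRBM10#2. Over all genes tested, 14% were called with shRBM10#1 (7.13% higher, 6.91% lower) and 25.9% with shRBM10#2 (12% higher, 13.9% lower). ACADM, the medium-chain acyl-CoA dehydrogenase, read 56.8 and 49.0 CPM with shScr, 65.5 and 70.5 with shRBM10#1 and 70.8 and 72.8 with shRBM10#2. All KD libraries lay above both controls, with log2 FC of 0.36 ± 0.08 (SE; FDR = 0.00971) and 0.44 ± 0.0797 (FDR = 0.00224). HADH, which catalyzes the next dehydrogenation, read 53.1 and 52.1 CPM with shScr, 61.7 and 63.3 with shRBM10#1 and 69.0 and 69.4 with shRBM10#2, with log2 FC of 0.25 ± 0.0653 (FDR = 0.0236) and 0.40 ± 0.0649 (FDR = 0.0013). PPARA, a transcription factor that drives oxidation genes, had a log2 FC of 0.38 ± 0.0744 with shRBM10#2 (FDR = 0.00334). ETFB, an electron carrier subunit, read 475 and 468 CPM with shScr, 531 and 593 with shRBM10#1 and 404 and 405 with shRBM10#2. It was higher with shRBM10#1, at a log2 FC of 0.25 ± 0.0678 (FDR = 0.0259), and lower with shRBM10#2, at -0.22 ± 0.0679 (FDR = 0.0313). The median log2 FC of the list was 0.11 with shRBM10#1 and 0.05 with shRBM10#2, against 0.01 over all genes, and 0 genes of the list were called in the pooled comparison by edgeR.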
